A study of Homo sapiens with 22 samples.

Results

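The genes described here are 10 components and commonly used transcriptional readouts of the YAP/TEAD system, measured by RNA-seq in H1299, a line derived from a human lung carcinoma of the non-small cell kind. They were taken as a fixed list of symbols (YAP1, WWTR1, TEAD1, TEAD4, CCN1, CCN2, ANKRD1, AMOTL2, LATS2 and AJUBA), and all 10 were found among the 37908 genes of the count table. Every culture carried an shRNA against BRCA2 that doxycycline (DOX) switches on. BRCA2-proficient cells grew without DOX, and BRCA2-deficient cells received 2 µg/mL DOX for 3 days. Cultures received either an AllStars control siRNA or one that targets β-catenin (siβ-catenin), and were left without or given the GSK3 inhibitor LY2090314 (GSK3i) at 250 nM for 24 h. "Untreated" stands for control siRNA without GSK3i. The figure legends of the study name DMSO as the treatment of cells without GSK3i. The 22 libraries formed 8 groups, with 2 libraries in each of the BRCA2-proficient groups without GSK3i and 3 libraries in each of the others. No DOX-treated culture without the shRNA was among them, so DOX, shRNA expression and loss of BRCA2 cannot be told apart.

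YAP1 and TAZ (the product of WWTR1) are transcriptional coactivators that have no DNA-binding domain and reach their target genes through the TEAD factors. The Hippo kinases hold them back: STK3 and STK4 activate LATS kinases, which phosphorylate YAP1 and TAZ and keep them in the cytoplasm or mark them for degradation. The genes CCN1 and CCN2 (formerly CYR61 and CTGF), ANKRD1 and AMOTL2 are among the usual readouts of this activity, and LATS2, AMOTL2 and AJUBA also act back on the pathway. β-catenin, the coactivator of Wnt signalling, is phosphorylated by GSK3 and then degraded, and GSK3 inhibitors stabilise it.

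The promoters of CCN2, ANKRD1 and AMOTL2 are shown because they carry the letters GGAATG, the core that TEAD factors bind, and because they are 3 of the readouts on which the results below turn. The 250 bases before the start site are given 5′ to 3′ on the gene's strand, from the RefSeq promoter windows on GRCh38.p14, with matches to GGAATG on either strand in capitals. CCN2 lies at chr6:131951373-131951622 on the minus strand, ANKRD1 at chr10:90921088-90921337 on the minus strand, and the second listed start of AMOTL2 at chr3:134374448-134374697 on the minus strand.
CCN2: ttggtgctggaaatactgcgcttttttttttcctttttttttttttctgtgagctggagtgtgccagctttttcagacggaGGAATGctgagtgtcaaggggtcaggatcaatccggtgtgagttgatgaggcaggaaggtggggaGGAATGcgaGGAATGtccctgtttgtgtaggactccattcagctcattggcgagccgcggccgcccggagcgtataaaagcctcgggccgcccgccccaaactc
ANKRD1: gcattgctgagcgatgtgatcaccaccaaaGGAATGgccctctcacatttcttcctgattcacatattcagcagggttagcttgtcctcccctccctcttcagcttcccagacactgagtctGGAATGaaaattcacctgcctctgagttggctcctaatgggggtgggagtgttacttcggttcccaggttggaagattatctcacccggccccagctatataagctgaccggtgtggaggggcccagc
AMOTL2: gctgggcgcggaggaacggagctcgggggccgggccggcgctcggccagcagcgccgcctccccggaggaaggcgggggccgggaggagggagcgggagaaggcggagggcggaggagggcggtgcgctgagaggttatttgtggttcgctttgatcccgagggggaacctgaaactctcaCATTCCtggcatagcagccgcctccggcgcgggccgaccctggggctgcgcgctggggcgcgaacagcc
CCN2 had 3 matches, which began at −169, −104 and −95 from the start site. ANKRD1 had 2, beginning at −220 and −128, and AMOTL2 had 1, beginning at −69 and read on the opposite strand. RefSeq windows of 300 bases (50 of them after the start) were at hand for 7 of the 10 genes, at 10 start sites. Among these, 6 windows of 6 genes held GGAATG (AJUBA, LATS2 and YAP1 with 1 each beside the genes above), against 14.0% of all 35116 windows. The TCF/LEF motif, read as CTTTGA followed by A or T on either strand, was in 1 of the 10 windows, that of AMOTL2, against 6.9% of all windows. The AP-1 motif TGANTCA was in 1, that of ANKRD1, against 7.7%. These are letter matches, not measured binding.

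Library totals were 18.9 to 29.3 M counts. Levels are normalised counts, that is, each library's counts scaled by its DESeq2 size factor. BRCA2 had 514 to 1111 normalised counts in the 10 BRCA2-proficient libraries and 71.4 to 225 in the 12 BRCA2-deficient ones, and every siβ-catenin library had less CTNNB1 (at most 2217) than every control siRNA library (at least 5206). KRT8, KRT18 and VIM, which this line expresses, were present in all libraries (at least 2037 normalised counts), and PTPRC, CDH5 and ALB, markers of blood, endothelium and liver, reached at most 1.57, 3.25 and 7.85. GSK3i treatment was checked with a score, the mean log2 level of 200 genes raised less that of 200 genes lowered by GSK3i in BRCA2-deficient siβ-catenin cells. Libraries of those cells were bound to separate, since the genes were chosen from them, so the score does not check their labels. The score was 2.51 to 3.06 in libraries labelled with GSK3i and −0.52 to 0.25 in those without, apart from 3 BRCA2-proficient siβ-catenin libraries. The library labelled siβ-catenin without GSK3i, number 2, scored 2.81, the library labelled siβ-catenin with GSK3i, number 2, scored 0.17, and the library labelled siβ-catenin without GSK3i, number 3, lay between at 1.05. All libraries were kept in the groups of their labels, and calls of the 10 genes that change without both libraries numbered 2 are given beside the results. Where the fit includes BRCA2-proficient siβ-catenin cells without GSK3i, it then holds a single library of them, number 3, which itself scored between the labels and is assumed to vary like the others. Leaving out number 3 as well would leave no BRCA2-proficient siβ-catenin library without GSK3i.

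**Figure D1:**
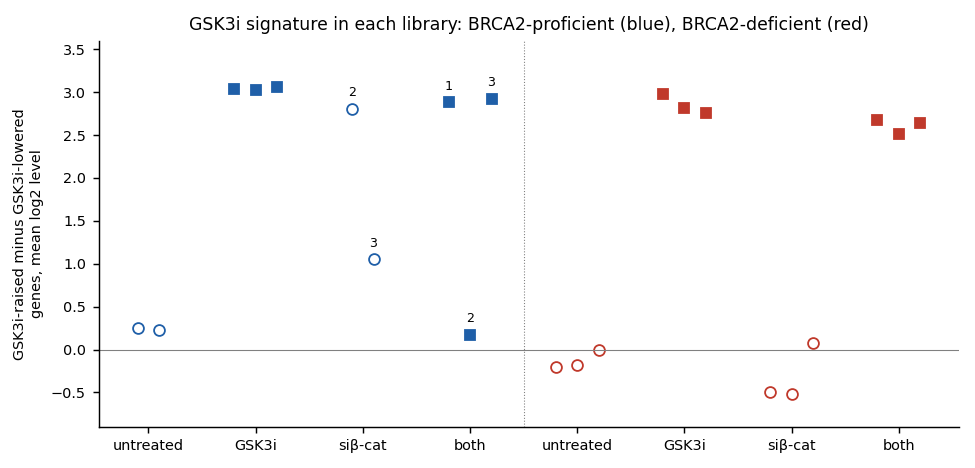
GSK3i score of each of the 22 libraries (y axis, log2 units) by labelled group (x axis, siβ-cat for siβ-catenin, both for siβ-catenin with GSK3i); squares are labelled with GSK3i and open circles without, blue is BRCA2-proficient and red BRCA2-deficient, and digits are the replicate numbers of the BRCA2-proficient siβ-catenin libraries. The 2 libraries numbered 2 sit at 2.81 and 0.17, each at the level of the other label.

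Per kilobase of exon (all annotated exons merged), CCN1 was the most abundant of the genes, with a mean of 2596 normalised counts per kb over the 22 libraries. CCN2 followed with 1475 and AMOTL2 with 908. On the same scale TEAD4 had 798 and TEAD1 322, WWTR1 had 418 and YAP1 379.9, and AJUBA had 395. ANKRD1 (179) and LATS2 (149) were the lowest. All 10 genes passed the filter on low counts in all 16 comparisons, and the lowest raw count of any was 54 (ANKRD1). Over the 8 group means of a gene, 5 to 7 of the 7 neighbouring pairs in order of level had overlapping libraries, so most steps in the order were within the spread of the replicates.

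**Figure D2:**
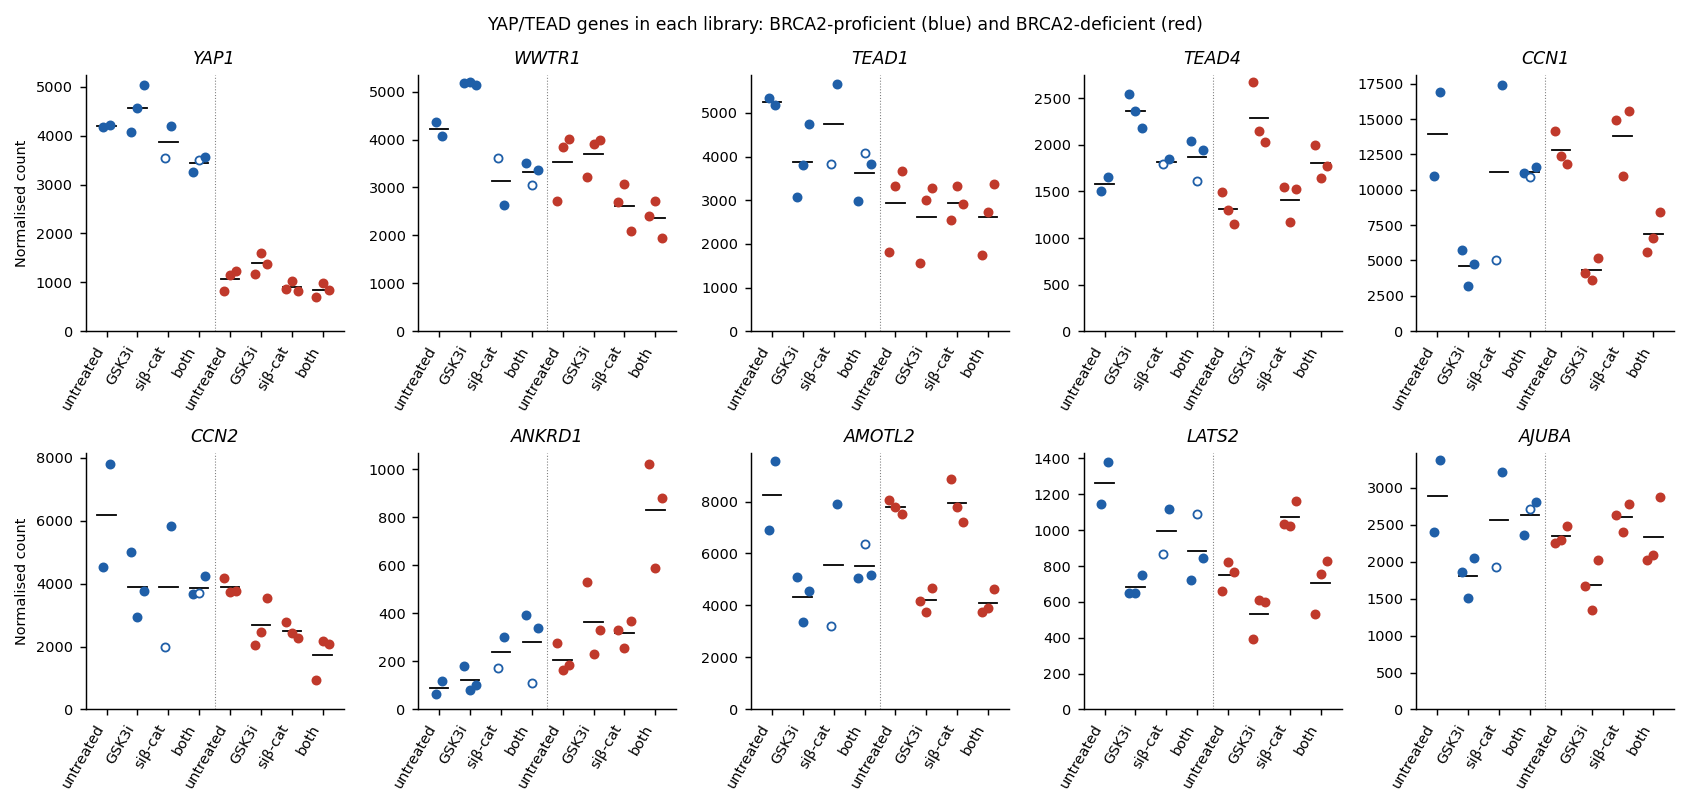
Normalised counts (y axis, from 0) of the 10 genes in each library by labelled group (x axis, siβ-cat for siβ-catenin, both for siβ-catenin with GSK3i); points are libraries, lines are group means, blue is BRCA2-proficient, red BRCA2-deficient, and open circles are the BRCA2-proficient siβ-catenin libraries numbered 2. YAP1 splits at the dotted line, with 3258 to 5035 on the left and 702 to 1607 on the right, and CCN1 is low in both groups with GSK3i and control siRNA (3217 to 5743).

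YAP1 (ENSG00000137693, GRCh37 chromosome 11, 101981178 to 102104155, plus strand), the coactivator that gives the system its name, followed BRCA2 status. Its normalised counts were 4168 and 4226 in untreated BRCA2-proficient cells and 818, 1144 and 1222 in untreated BRCA2-deficient cells. With GSK3i they were 4081, 4575 and 5035 against 1171, 1607 and 1379.5. With siβ-catenin they were 3542 and 4197 against 871, 1029 and 829, and with both agents 3258, 3501 and 3567 against 702, 988 and 844. All 12 BRCA2-deficient libraries lay below all 10 BRCA2-proficient ones, at 166 against 636 normalised counts per kb on average. The log2 fold change with BRCA2 depletion was −2.0 ± 0.22 (SE) in untreated cells (DESeq2, adjusted p = 5.08e-17), a 4.01-fold lower level. It was −1.72 ± 0.17 with GSK3i (adjusted p = 7.85e-20), −2.11 ± 0.18 with siβ-catenin (adjusted p = 5.44e-28) and −2.03 ± 0.18 with both (adjusted p = 1.1e-25). These comparisons share no library. Among genes with a mean of at least 100 normalised counts, YAP1 had the 6th lowest fold change of 11803 in untreated cells, and ranked 14, 21 and 10 from the lowest in the others. Without both libraries numbered 2 the values were −2.24 ± 0.21 with siβ-catenin and −2.03 ± 0.19 with both agents. These are bulk libraries, so fewer cells that express a gene and less RNA per cell cannot be told apart. An opposite-strand gene, ENSG00000254422, covers 9.95% of the YAP1 exon bases and is not in the count table. The strand setting of the counting is not given in the sources used here, so that share of the YAP1 reads is uncertain.

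GSK3i did not move YAP1 past the threshold for a call, which was an adjusted p below 0.05 with a log2 fold change beyond 0.5 in either direction. Its log2 fold changes with GSK3i in control siRNA cells were 0.11 ± 0.13 (BRCA2-proficient, 95% interval −0.16 to 0.37) and 0.38 ± 0.21 (BRCA2-deficient, −0.03 to 0.8). Under GSK3i, siβ-catenin lowered YAP1 in BRCA2-deficient cells by a log2 fold change of −0.72 ± 0.20 (adjusted p = 0.00885). That call was lost without any of 4 libraries: control siRNA number 2 (−0.60) or 3 (−0.72), or siβ-catenin number 1 (−0.60) or 3 (−0.72). The corresponding value in BRCA2-proficient cells was −0.38 ± 0.14 (adjusted p = 0.0722), and the difference between backgrounds was −0.32 ± 0.24 (interaction, adjusted p = 1).

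WWTR1 (ENSG00000018408, chromosome 3, 149235022 to 149454501, minus strand), which encodes the coactivator TAZ, had a negative change with siβ-catenin in all 4 settings, called in both settings with GSK3i. Under GSK3i the BRCA2-proficient libraries had 5178, 5195 and 5139.5 normalised counts with control siRNA and 3517, 3054 and 3371 with siβ-catenin. The BRCA2-deficient ones had 3218, 3914 and 3990.1 against 2404, 2725 and 1937. The groups did not overlap in either background. The log2 fold changes were −0.62 ± 0.12 (adjusted p = 3.19e-05) and −0.66 ± 0.18 (adjusted p = 0.00878). The first stayed called without both libraries numbered 2 (−0.57 ± 0.11), and the second was lost without control siRNA number 2 (−0.63) or 3 (−0.60) or siβ-catenin number 3 (−0.54).

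Without GSK3i the same depletion gave WWTR1 changes of −0.44 ± 0.21 in BRCA2-proficient cells (adjusted p = 0.273) and −0.43 ± 0.20 in BRCA2-deficient cells (adjusted p = 0.319). Without the library labelled siβ-catenin number 2 the first was −0.68 ± 0.16 and called, and without untreated number 1 the second was −0.59 and called. GSK3i itself gave 0.28 ± 0.12 (adjusted p = 0.0548) in BRCA2-proficient and 0.07 ± 0.20 in BRCA2-deficient control siRNA cells. With BRCA2 depletion under GSK3i, WWTR1 differed by −0.48 ± 0.14 (adjusted p = 0.0147), which passed the test but fell short of the size for a call, and was called without BRCA2-deficient number 2 (−0.53) or 3 (−0.55). The antisense gene WWTR1-AS1 covers 9.05% of its exon bases at 9.99 to 32.2 normalised counts. The strand setting of the counting is not given in the sources used here, so that share of the WWTR1 reads is uncertain.

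Of the DNA-binding partners, TEAD4 (ENSG00000197905, chromosome 12, 3068496 to 3149842, plus strand) was higher with GSK3i in control siRNA cells, with 1507 and 1659.8 normalised counts in untreated BRCA2-proficient cells against 2544, 2359.8 and 2177 with GSK3i. In BRCA2-deficient cells it had 1498, 1298 and 1146 against 2678, 2147 and 2036. No untreated library reached a GSK3i library in either background. The log2 fold changes were 0.56 ± 0.14 (adjusted p = 0.00031) and 0.80 ± 0.19 (adjusted p = 0.000179), and the first call was lost without untreated number 2 (0.50, adjusted p = 0.0529). In BRCA2-deficient siβ-catenin cells TEAD4 had a GSK3i change of 0.36 ± 0.17 (adjusted p = 0.103). The interaction of GSK3i with siβ-catenin, −0.45 ± 0.24 there, did not pass the test (adjusted p = 0.869).

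TEAD1 (ENSG00000187079, chromosome 11, 12695968 to 12966284, plus strand) was lower in BRCA2-deficient cells without GSK3i. Untreated libraries had 5338 and 5174 normalised counts in BRCA2-proficient cells and 1803, 3327 and 3660.4 in BRCA2-deficient cells, with no overlap and with BRCA2-deficient number 1 far below the other two. The log2 fold change was −0.86 ± 0.29 (adjusted p = 0.0355) in untreated cells and −0.72 ± 0.22 (adjusted p = 0.00612) with siβ-catenin. The untreated call was lost without either BRCA2-proficient library (−0.84 without number 2, −0.89 without number 3) or without BRCA2-deficient number 2 (−0.96). With siβ-catenin it was lost without BRCA2-proficient number 3 (−0.42) or BRCA2-deficient number 1 (−0.63), and was −0.99 ± 0.22 without both libraries numbered 2. Under GSK3i TEAD1 differed by −0.56 ± 0.28 (adjusted p = 0.233) and, with both agents, by −0.48 ± 0.25 (adjusted p = 0.258). With the replicate block these were −0.62 and −0.52, both called (adjusted p = 2.82e-05 and 0.027). GSK3i gave TEAD1 −0.46 ± 0.17 in BRCA2-proficient control siRNA cells (adjusted p = 0.0243), short of the size, and −0.61 and called without GSK3i number 3.

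CCN1 (ENSG00000142871, chromosome 1, 86046444 to 86050272, plus strand), which encodes a secreted matricellular protein, had the largest log2 fold change of the 10 genes with GSK3i in control siRNA cells. In BRCA2-proficient cells it had 11007 and 16911 normalised counts untreated and 5743, 3217 and 4766 with GSK3i. In BRCA2-deficient cells it had 14149, 12381 and 11856 against 4108, 3644 and 5142. The untreated libraries lay above all GSK3i libraries in both backgrounds. The fall was 3.09-fold in BRCA2-proficient cells (log2 fold change −1.63 ± 0.22, adjusted p = 3.18e-12) and 2.98-fold in BRCA2-deficient cells (−1.58 ± 0.18, adjusted p = 1.01e-15). The difference between these responses was 0.03 ± 0.35 (95% interval −0.64 to 0.71, interaction, adjusted p = 1).

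Under GSK3i CCN1 was higher with siβ-catenin than with control siRNA. BRCA2-proficient cells with GSK3i and siβ-catenin had 11163, 10909 and 11642 normalised counts, above the 3217 to 5743 with GSK3i and control siRNA. BRCA2-deficient cells had 5598, 6567 and 8456, above 3644 to 5142. The log2 fold changes with siβ-catenin under GSK3i were 1.32 ± 0.20 (adjusted p = 4.05e-08) and 0.67 ± 0.22 (adjusted p = 0.031). The first was 1.34 ± 0.20 without both libraries numbered 2. The second was lost without control siRNA number 2 (0.56) or siβ-catenin number 2 (0.70) or 3 (0.49). The difference between backgrounds was −0.63 ± 0.31 (unadjusted p = 0.044, adjusted p = 1).

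In siβ-catenin cells the GSK3i response of CCN1 could be read in BRCA2-deficient cells, where it fell from 14937, 10967 and 15594 normalised counts to 5598, 6567 and 8456 (log2 fold change −1.01 ± 0.19, adjusted p = 5.21e-06). Compared with the response in control siRNA cells this was 0.56 ± 0.28 less negative (interaction, unadjusted p = 0.045, adjusted p = 0.776). In BRCA2-proficient siβ-catenin cells the libraries labelled without GSK3i had 5034 and 17436 normalised counts, on both sides of the 10909 to 11642 with GSK3i. The log2 fold change was 0.01 ± 0.42 (adjusted p = 1), and it was −0.61 ± 0.12 (adjusted p = 2.8e-05) without both libraries numbered 2. The single library without GSK3i in that fit is number 3. Without the library labelled siβ-catenin number 3 alone, the value was 1.16 (adjusted p = 0.000523), in a fit whose only library labelled without GSK3i is number 2, with its score of 2.81.

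AMOTL2 (ENSG00000114019, chromosome 3, 134074189 to 134094321, minus strand), which encodes an angiomotin-family protein that binds YAP1 and TAZ, also fell with GSK3i in both backgrounds. Its normalised counts were 6923 and 9556 untreated against 5093, 3346 and 4549 with GSK3i in BRCA2-proficient cells. They were 8058, 7797 and 7536 against 4174, 3756 and 4691 in BRCA2-deficient cells. The log2 fold changes were −0.94 ± 0.19 (adjusted p = 4.29e-06) and −0.89 ± 0.15 (adjusted p = 5.56e-08), and no left-out library ended either call. After siβ-catenin in BRCA2-deficient cells the values were 8858, 7795 and 7208 against 3767, 3892 and 4636, a log2 fold change of −0.95 ± 0.15 (adjusted p = 1.83e-08). The GSK3i response in the presence of siβ-catenin differed from that with control siRNA by −0.07 ± 0.19 (95% interval −0.44 to 0.29, interaction).

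Unlike CCN1, AMOTL2 showed no called change with siβ-catenin under GSK3i. Its values there were 0.38 ± 0.19 (adjusted p = 0.252) in BRCA2-proficient and −0.04 ± 0.16 (95% interval −0.36 to 0.28) in BRCA2-deficient cells, and the gap between CCN1 and AMOTL2 was not tested. BRCA2 depletion gave −0.10 ± 0.19 in untreated and −0.04 ± 0.19 in GSK3i cells. It gave 0.49 ± 0.32 with siβ-catenin (−0.03 ± 0.20 without both libraries numbered 2) and −0.44 ± 0.18 with both agents (adjusted p = 0.0988, 95% interval −0.78 to −0.09), where the groups did not overlap.

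CCN2 (ENSG00000118523, chromosome 6, 132269316 to 132272512, minus strand) encodes the matricellular protein closest to CCN1 in family and carries the 3 GGAATG matches printed above. Its GSK3i change was not called in any setting by the main fits with all libraries kept, though alternative fits called it. Untreated BRCA2-proficient libraries had 4515 and 7810.0 normalised counts and GSK3i libraries 4987, 2954 and 3758, which overlap. BRCA2-deficient libraries had 4170.0, 3722 and 3773 against 2040.2, 2477 and 3539.5, which do not. The log2 fold changes were −0.68 ± 0.40 (adjusted p = 0.188) and −0.53 ± 0.22 (adjusted p = 0.0536). The edgeR test called the first (−0.68, adjusted p = 0.0466). So did the replicate block (−0.85 ± 0.15, DESeq2, adjusted p = 5.34e-07), though the numbers do not pair the libraries in that comparison. Leaving out untreated number 2 gave −1.01, against number 3 as the only untreated library. In the BRCA2-deficient cells the replicate block gave −0.57 (adjusted p = 0.0462) and TMM scaling −0.55 (adjusted p = 0.0439), and leaving out GSK3i number 3 gave −0.78 (adjusted p = 0.000579). In BRCA2-deficient siβ-catenin cells the change was −0.52 ± 0.25 (adjusted p = 0.11), and −0.71 and called without GSK3i number 2 (adjusted p = 0.0372).

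With BRCA2 depletion CCN2 had a negative change in all 4 settings, called in 2 of them. With both agents the counts were 3681, 3696 and 4241 in BRCA2-proficient and 952, 2172 and 2069.7 in BRCA2-deficient cells, a log2 fold change of −1.17 ± 0.27 (adjusted p = 0.000892). The value without both libraries numbered 2 was −1.21 ± 0.29, still called. In untreated cells it was −0.69 ± 0.24 (adjusted p = 0.0471), a call that was lost without BRCA2-proficient number 3 (−0.25) or BRCA2-deficient number 2 (−0.66). The other values were −0.54 ± 0.25 with GSK3i (adjusted p = 0.198, or −0.80 and called without BRCA2-deficient number 3) and −0.67 ± 0.35 with siβ-catenin (adjusted p = 0.135). The last became −1.26 ± 0.20 (adjusted p = 2.82e-08) without both libraries numbered 2, against number 3 as the only BRCA2-proficient library. In BRCA2-deficient cells without GSK3i, siβ-catenin lowered CCN2 from 4170.0, 3722 and 3773 to 2764, 2445 and 2266 normalised counts (log2 fold change −0.64 ± 0.14, adjusted p = 0.0017). Under GSK3i the value was also −0.64, with an SE of 0.33 (adjusted p = 0.277), and with the replicate block it was −0.69 (adjusted p = 0.0343). LINC01013 covers 11.89% of the CCN2 exon bases on the opposite strand but had at most 2.53 normalised counts.

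ANKRD1 (ENSG00000148677, chromosome 10, 92671853 to 92680844, minus strand), which encodes an ankyrin-repeat protein of the nucleus and is widely used as a YAP readout, was called only in the direction of higher levels. It was the least counted member, with 62.7 to 1021 normalised counts. Untreated libraries had 62.7 and 119.9 in BRCA2-proficient and 277, 162 and 184 in BRCA2-deficient cells. With GSK3i they had 182, 81.9 and 100.3 against 532, 229.9 and 332, and with both agents 394, 112 and 338 against 1021, 588 and 882. In each of these 3 settings all BRCA2-deficient libraries were the higher ones. The log2 fold changes with BRCA2 depletion were 1.15 ± 0.35 (adjusted p = 0.0193), 1.58 ± 0.35 (adjusted p = 0.00031) and 1.56 ± 0.37 (adjusted p = 0.000885). The untreated call was lost without BRCA2-proficient number 2 (0.76) or BRCA2-deficient number 1 (0.91), and the last without BRCA2-proficient number 3 (1.71, adjusted p = 0.133). With siβ-catenin alone the value was 0.39 ± 0.29 (adjusted p = 0.315), and 0.04 ± 0.29 without both libraries numbered 2. The edgeR test called none of these, with adjusted p from 0.0518 to 0.112 for the 3 that DESeq2 called.

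GSK3i raised ANKRD1 in BRCA2-deficient siβ-catenin cells, from 333, 256 and 369 normalised counts to 1021, 588 and 882, which is 2.62-fold (log2 fold change 1.39 ± 0.23, adjusted p = 6.36e-08). No left-out library ended that call. The value in BRCA2-deficient control siRNA cells was 0.81 ± 0.33 (adjusted p = 0.0523), and the difference between the responses was 0.56 ± 0.44 (interaction, adjusted p = 1). With the replicate block the control siRNA value was 0.77 and called (adjusted p = 5.61e-05), and it was 1.06 and called without untreated number 1 or GSK3i number 2. BRCA2-proficient control siRNA cells had 0.39 ± 0.37 (adjusted p = 0.447).

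Under GSK3i ANKRD1 was also higher with siβ-catenin. The log2 fold change was 1.19 ± 0.32 (adjusted p = 0.00611) in BRCA2-deficient cells, a call lost without control siRNA number 2 (0.94) or 3 (1.13) or siβ-catenin number 3 (1.14). In BRCA2-proficient cells it was 1.24 ± 0.43 (adjusted p = 0.056), and called with the replicate block (1.14, adjusted p = 0.00315), without control siRNA number 1 (1.64) and without both libraries numbered 2 (1.61 ± 0.29, adjusted p = 3.82e-06). Without GSK3i, BRCA2-proficient cells had 62.7 and 119.9 normalised counts with control siRNA and 174 and 304 with siβ-catenin (1.37 ± 0.42, adjusted p = 0.038). That call was lost without either control siRNA library (0.98 without number 2, 1.92 without number 3) or the library labelled siβ-catenin number 3 (0.91), and the value was 1.72 ± 0.46, still called, without both libraries numbered 2. BRCA2-deficient cells without GSK3i had 0.63 ± 0.24 (adjusted p = 0.167), and 0.88 and called without control siRNA number 1.

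LATS2 (ENSG00000150457, chromosome 13, 21547175 to 21635725, minus strand), the kinase that phosphorylates YAP1 and TAZ and is itself a YAP target, was lower with GSK3i in BRCA2-proficient cells. Its normalised counts were 1146 and 1382 untreated and 648, 652 and 749.8 with GSK3i (log2 fold change −0.90 ± 0.16, adjusted p = 1.29e-07). BRCA2-deficient cells had 663, 821 and 764 against 394, 608 and 601, which do not overlap (−0.49 ± 0.22, adjusted p = 0.0769). The replicate block gave −0.51 there, which was called (adjusted p = 0.0006). The difference between the backgrounds was 0.40 ± 0.28 (interaction, adjusted p = 1). In BRCA2-deficient siβ-catenin cells LATS2 fell by 0.60 on the log2 scale (SE 0.18, adjusted p = 0.00765), and by 0.44, short of the size, without GSK3i number 1.

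LATS2 was also lower with BRCA2 depletion in untreated cells (−0.78 ± 0.19, adjusted p = 0.00207), and this call was lost without either BRCA2-proficient library (−0.91 without number 2, −0.64 without number 3). The same comparison gave −0.35 ± 0.21 with GSK3i and −0.33 ± 0.23 with both agents, and 0.09 ± 0.19 with siβ-catenin, none of them called. In BRCA2-deficient cells without GSK3i, siβ-catenin gave a log2 fold change of 0.52 ± 0.16 (adjusted p = 0.0456), which was lost when any of 5 of the 6 libraries was left out, with values from 0.43 to 0.57. The exception was control siRNA number 3.

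AJUBA (ENSG00000129474, chromosome 14, 23440386 to 23451760, minus strand) encodes a LIM-domain protein that binds LATS kinases and restrains them. It had 2398 and 3372 normalised counts in untreated BRCA2-proficient cells and 1858, 1511 and 2048 with GSK3i (log2 fold change −0.69 ± 0.18, adjusted p = 0.000568), a call lost without untreated number 3 (−0.43). In BRCA2-deficient cells it had 2248, 2299.5 and 2485 against 1672, 1342 and 2024. The groups stood apart and the change of −0.48 ± 0.19 passed the test (adjusted p = 0.0415) but not the size, while the replicate block (−0.50, adjusted p = 3.57e-05) and TMM scaling (−0.50, adjusted p = 0.033) placed it just past it, as did leaving out GSK3i number 3 (−0.63). Under GSK3i, siβ-catenin gave 0.57 ± 0.16 in BRCA2-proficient cells (adjusted p = 0.0144) and 0.47 ± 0.22 in BRCA2-deficient cells (adjusted p = 0.228). The first was 0.54 ± 0.16 and called without both libraries numbered 2, and was lost without control siRNA number 1 (0.58) or 2 (0.45) or siβ-catenin number 3 (0.52). BRCA2 depletion gave AJUBA no called change, with a largest value of −0.32 ± 0.20 in untreated cells.

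Counted by comparison, GSK3i in control siRNA cells lowered 4 of the 10 genes in BRCA2-proficient cells (CCN1, AMOTL2, LATS2 and AJUBA) and 2 in BRCA2-deficient cells (CCN1 and AMOTL2), and raised 1 in each (TEAD4). Over all genes tested, 14.2% were called lower and 11.8% higher in BRCA2-proficient cells, and 13.8% and 11.6% in BRCA2-deficient cells. The 1 gene raised in each, and the 2 lowered in BRCA2-deficient cells, are thus near the share of all genes. The median log2 fold change of the 10 was −0.57 and −0.32, beside 0.00 and 0.02 over all genes tested. With the replicate block the BRCA2-deficient counts were 5 lower and 2 higher, beside 2520 lower and 2214 higher of all 16863 genes. The 2 higher are near that share. In BRCA2-deficient siβ-catenin cells 3 were lower (CCN1, AMOTL2 and LATS2) and 1 higher (ANKRD1), against 11.5% and 8.56% of all genes, with a median of −0.16. The 1 higher is near the share of all genes there too. In BRCA2-proficient siβ-catenin cells none of the 10 had an unadjusted p below 0.05, which 263 of all 17010 genes had. None was called there by DESeq2 or by edgeR, in a comparison where 0.00588% of all genes were called lower and 0.047% higher. Without both libraries numbered 2 these shares were 2.94% and 3.36%, and 4 of the 10 genes were lower (CCN1, AMOTL2, CCN2 and TEAD1), with a median of −0.41. The GSK3i comparisons in the same background share no library.

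**Figure D3:**
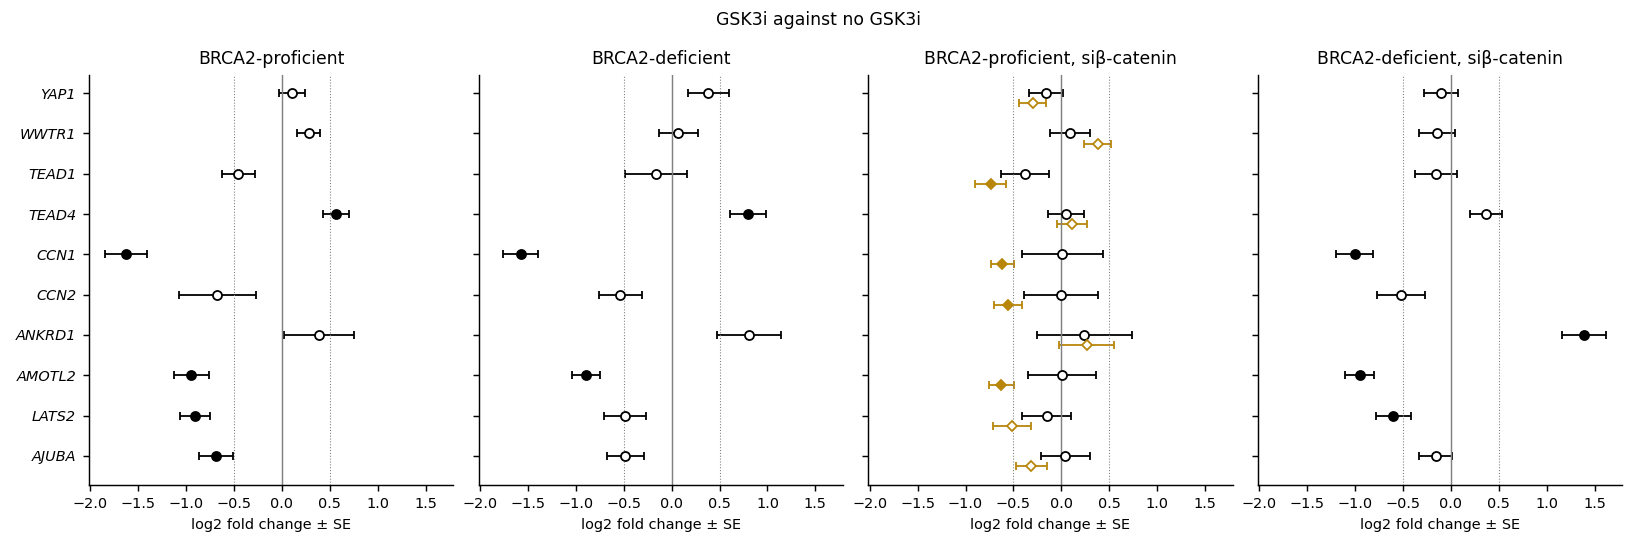
Log2 fold change with GSK3i (x axis, ± SE) of the 10 genes (y axis) in 4 settings; black filled points are called, open points are not, gold diamonds are the fit without both BRCA2-proficient siβ-catenin libraries numbered 2, and dotted lines mark 0.5 in both directions. CCN1 is at −1.63 and −1.58 in the first and second panels and at −1.01 in the last, while ANKRD1 lies to the right of 0 in all 4.

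With siβ-catenin under GSK3i, 2 of the 10 genes were higher (CCN1 and AJUBA) and 1 lower (WWTR1) in BRCA2-proficient cells, where 3.18% of all genes were called higher and 1.92% lower. In BRCA2-deficient cells 2 were higher (CCN1 and ANKRD1) and 2 lower (WWTR1 and YAP1), against 2.95% and 2.57%. The edgeR test kept CCN1 and WWTR1 in BRCA2-proficient cells and called none of the 10 in BRCA2-deficient cells. Without GSK3i, 1 was higher (ANKRD1) and none lower in BRCA2-proficient cells, against 1.01% and 1.96%, and 1 was higher (LATS2) and 1 lower (CCN2) in BRCA2-deficient cells, against 1.21% and 0.82%. The edgeR test called none of these 3. Without the library labelled siβ-catenin number 3, the BRCA2-proficient values were −1.48 for CCN1, −1.37 for AMOTL2 and −0.59 for AJUBA. The siβ-catenin group is then number 2 alone, which scored 2.81 for GSK3i. The comparisons with siβ-catenin under GSK3i and those with GSK3i in control siRNA cells share the libraries with GSK3i and control siRNA, so their opposite signs for CCN1 and AJUBA are not independent.

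**Figure D4:**
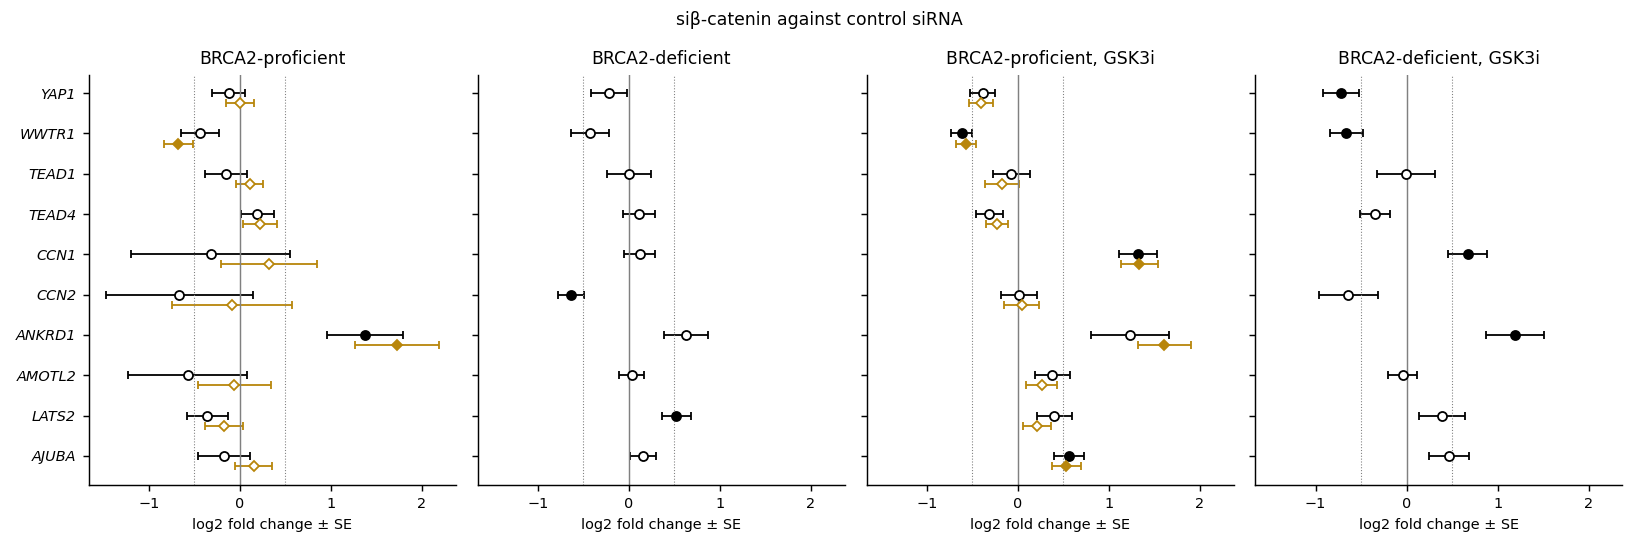
Log2 fold change with siβ-catenin (x axis, ± SE) of the 10 genes (y axis) in 4 settings, with points, diamonds and dotted lines as in the plot of GSK3i changes. Under GSK3i CCN1 is at 1.32 and 0.67 and WWTR1 at −0.62 and −0.66.

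With BRCA2 depletion, 4 of the 10 genes were lower (YAP1, LATS2, TEAD1 and CCN2) and 1 higher (ANKRD1) in untreated cells, where 4.14% of all genes were called lower and 2.77% higher. With GSK3i 1 was lower (YAP1) and 1 higher (ANKRD1), against 3.05% and 3.76%. With siβ-catenin 2 were lower (YAP1 and TEAD1) and none higher, against 13.8% and 13.6%, so the 2 lower are near the share of all genes. With both agents 3 were lower (YAP1, CCN2 and CCN1) and 1 higher (ANKRD1), against 4.36% and 3.38%. The CCN1 change there was −0.71 ± 0.19 (adjusted p = 0.00464), lost without BRCA2-deficient number 2 (−0.68, adjusted p = 0.0592). The replicate block added WWTR1 (−0.51, adjusted p = 0.0303) and TEAD1 to that comparison, and WWTR1 was also called with TMM scaling (−0.51) and without BRCA2-deficient number 2 (−0.62) or both libraries numbered 2 (−0.56). With siβ-catenin, leaving out the library labelled BRCA2-proficient number 3 gave values of 1.43 for CCN1, 1.27 for AMOTL2 and 0.84 for ANKRD1. They are against number 2 alone, with its GSK3i score of 2.81. Without number 2 instead, the values were −0.37, −0.03 and 0.04, against number 3 alone. Of the calls with all libraries kept, the edgeR test kept YAP1 in all 4 settings and, with siβ-catenin, TEAD1.

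**Figure D5:**
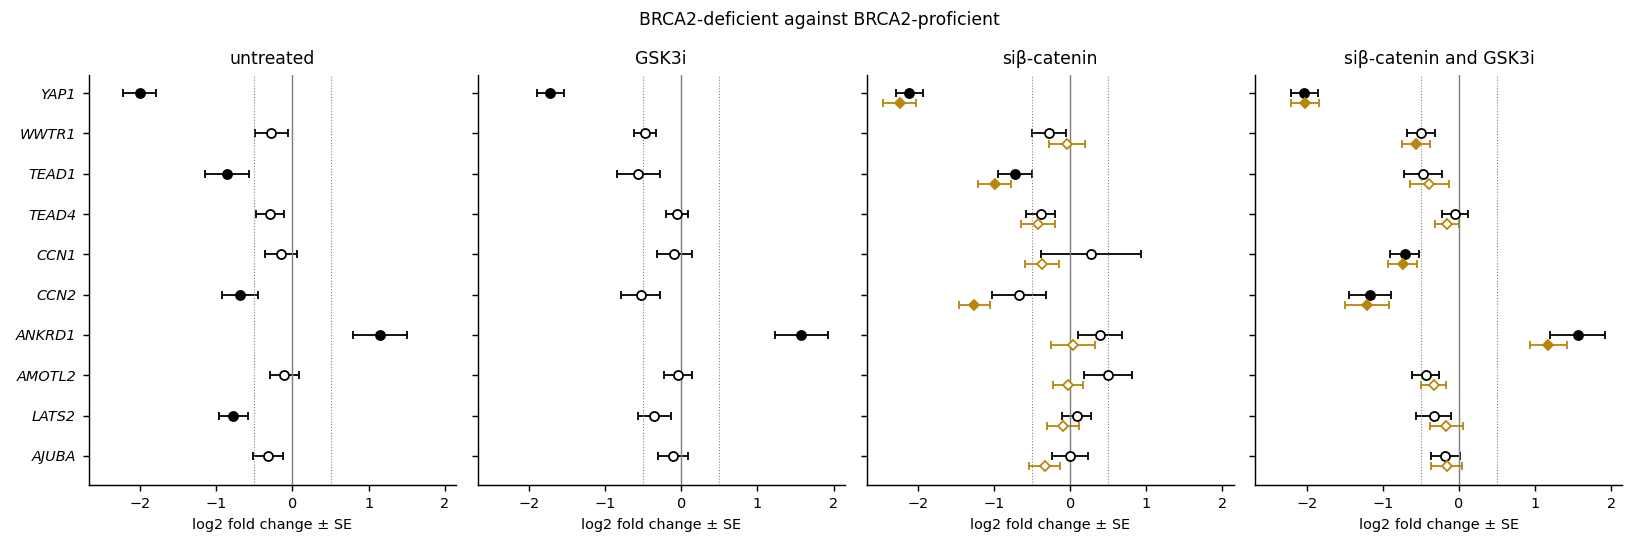
Log2 fold change of BRCA2-deficient against BRCA2-proficient cells (x axis, ± SE) of the 10 genes (y axis) in 4 settings, with points, diamonds and dotted lines as in the plot of GSK3i changes. YAP1 lies between −1.72 and −2.11 in every panel, and ANKRD1 is called on the other side of 0 in 3 of them.

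No member was called in any of the 4 interaction tests, by DESeq2 or by edgeR. For GSK3i between BRCA2 backgrounds (control siRNA) 0 of the 10 had an unadjusted p below 0.05, and 0.0345% of all genes were called. For siβ-catenin under GSK3i between backgrounds 1 of 10 had an unadjusted p below 0.05, with 0.0057% called. For GSK3i between siRNAs the count was 1 of 10 in BRCA2-deficient cells, with 0.486% called, and 5 of 10 in BRCA2-proficient cells, with 7.63% called. At that unadjusted p, the numbers over all genes were 558 of 17381 and 326 of 17544 for the tests between backgrounds, in the order above. Between siRNAs they were 994 of 18117 in BRCA2-deficient and 4001 of 17093 in BRCA2-proficient cells. In the last test, which holds all 3 doubted libraries, the largest value was that of CCN1 (1.63 ± 0.70, adjusted p = 0.117). It was called in one model over all 8 groups (1.61, adjusted p = 0.0129). Without the library labelled siβ-catenin number 3, number 2 is alone in its group. The values were then 2.80 for CCN1, 1.74 for AMOTL2, 1.64 for CCN2, 1.15 for AJUBA and 0.95 for LATS2. LATS2 was called without siβ-catenin with GSK3i number 1 (0.87).

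Further YAP/TEAD targets beyond the 10 genes were read from a list of 17, of which 16 passed the filter in every comparison. With GSK3i 8 were lower and 1 higher in control siRNA cells of either background, with medians of −0.46 and −0.48, beside 14.2% lower and 11.8% higher of all genes in BRCA2-proficient and 13.8% and 11.6% in BRCA2-deficient cells, so that the 1 higher is near the share of all genes. Of the 16, 7 were lower and 1 higher in BRCA2-deficient siβ-catenin cells, beside 11.5% and 8.56% of all genes, where the 1 higher is again near the share. AXL, a receptor tyrosine kinase, fell by 1.5 (SE 0.13) in BRCA2-proficient and by 1.34 (SE 0.16) in BRCA2-deficient cells on the log2 scale. NUAK2, a kinase, changed by −1.38 ± 0.20 and ARHGEF17 by −1.36 ± 0.15 in BRCA2-proficient cells. RBMS3 (−1.69 ± 0.19) and IGFBP3 (−1.37 ± 0.45) were among the 3 with the largest decrease in BRCA2-deficient cells. In siβ-catenin cells without BRCA2 these were IGFBP3 (−1.43 ± 0.36), NUAK2 (−1.07 ± 0.19) and CRIM1 (−1.02 ± 0.21). FJX1 was the single target raised in each of the 3 settings (0.75 ± 0.18, 0.69 ± 0.17 and 0.70 ± 0.16). Under GSK3i siβ-catenin raised ARHGEF17 (0.75 ± 0.23) and RBMS3 (0.85 ± 0.26) and lowered ASAP1 (−0.68 ± 0.16) in BRCA2-proficient cells, and raised GADD45A (0.70 ± 0.22) and RBMS3 (0.76 ± 0.18) in BRCA2-deficient cells. The edgeR test did not call ARHGEF17, RBMS3 or ASAP1 in BRCA2-proficient cells (adjusted p = 0.125, 0.125 and 0.0521). Nor did it call GADD45A in BRCA2-deficient cells (adjusted p = 0.108). Without both libraries numbered 2 the ARHGEF17 and RBMS3 calls in BRCA2-proficient cells were lost (0.48 and 0.56). Leaving out 1 library also ended these calls with any of the 3 control siRNA libraries (0.73 to 0.79 for ARHGEF17, 0.81 to 0.87 for RBMS3), that of ASAP1 with control siRNA number 2 (−0.62), that of RBMS3 in BRCA2-deficient cells with siβ-catenin number 2 (0.71), and that of GADD45A with control siRNA number 2 or 3 or siβ-catenin number 1 or 3 (0.53 to 0.75). The IGFBP3 call in BRCA2-deficient control siRNA cells was lost without untreated number 1 or 2 or GSK3i number 2 or 3 (−1.06 to −1.30). With BRCA2 depletion 4.14% of all genes were called lower and 2.77% higher in untreated cells. The shares were 3.05% and 3.76% with GSK3i, 13.8% and 13.6% with siβ-catenin, and 4.36% and 3.38% with both agents. With all libraries kept, the counts of the 16 were near these shares. DESeq2 called none of the 16 in untreated cells, where 1 had an unadjusted p below 0.05, beside 3173 of all 17157 genes. It called 1 lower with GSK3i, 1 lower with both agents, and 2 higher and 1 lower with siβ-catenin alone. The median of the 16 with siβ-catenin alone was 0.02. It was −0.11 without both libraries numbered 2, against number 3 as the only BRCA2-proficient library.

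Among 33 other Hippo pathway genes, 9 were lower and 3 higher with GSK3i in BRCA2-proficient control siRNA cells, and 7 and 4 in BRCA2-deficient ones, with medians of −0.10 and 0.08. Beside the same shares of all genes, the numbers of higher genes were near the background. The protocadherin pair DCHS1 and FAT4 (a ligand and its receptor) changed in both backgrounds, by −1.94 ± 0.30 and −1.51 ± 0.22 in the first and by −1.22 ± 0.33 and −1.63 ± 0.35 in the second. WTIP, a relative of AJUBA, changed by −1.18 ± 0.23 and −1.02 ± 0.22. AMOTL1, a relative of AMOTL2, rose where AMOTL2 fell (0.70 ± 0.13 and 0.87 ± 0.23), as did the polarity gene SCRIB (0.51 ± 0.12 and 0.77 ± 0.13). NF2 (0.60 ± 0.17) rose in BRCA2-proficient and RASSF1 (0.74 ± 0.17) in BRCA2-deficient cells. The NF2 call was lost without untreated number 2 (0.57) or GSK3i number 1 (0.42), and that of SCRIB without GSK3i number 2 (0.50). In BRCA2-deficient siβ-catenin cells 7 fell, led by VGLL3 (−1.35 ± 0.27), FAT4 (−1.18 ± 0.26) and DCHS1 (−1.02 ± 0.22), and none rose, beside 11.5% lower and 8.56% higher of all genes.

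Under GSK3i, siβ-catenin raised 3 of the 33 (DCHS1 by 1.20 ± 0.39, WTIP by 1.07 ± 0.24 and TEAD3 by 0.90 ± 0.18) and lowered AMOTL1 (−0.77 ± 0.13) in BRCA2-proficient cells. Over all genes 3.18% were called higher and 1.92% lower there, and 2.95% and 2.57% in BRCA2-deficient cells. Among BRCA2-deficient cells siβ-catenin raised TEAD3 (0.87 ± 0.17) and lowered AMOTL1 (−0.79 ± 0.17) and SCRIB (−0.55 ± 0.13). The DCHS1 call was lost without both libraries numbered 2 (0.74) and with the replicate block (1.12, adjusted p = 0.0577), and without any control siRNA library (1.10 to 1.33). The edgeR test also ended it (adjusted p = 0.128), and the WTIP call (adjusted p = 0.0583). The SCRIB call under siβ-catenin was lost without control siRNA number 2 (−0.56) or 3 (−0.53) or siβ-catenin number 3 (−0.48), and with edgeR (adjusted p = 0.0667). Without GSK3i siβ-catenin raised 2 of the 33 in BRCA2-deficient cells, beside 1.21% of all genes. With BRCA2 depletion 3 of the 33 were lower and 1 higher in untreated cells, 2 and 1 under GSK3i, 6 and 5 after siβ-catenin, and 4 and 1 after both agents. Over all genes 3.05% were lower and 3.76% higher under GSK3i, and 4.36% and 3.38% after both agents. The 6 and 5 after siβ-catenin, and the 1 higher in the other settings, are near the share of all genes. The counts after siβ-catenin stand beside 13.8% lower and 13.6% higher of all genes, against 4.14% and 2.77% in untreated cells. The median of the 33 after siβ-catenin was −0.19. It was −0.22 without both libraries numbered 2, against number 3 as the only BRCA2-proficient library.

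Targets of SRF and MRTF, whose promoters answer to actin dynamics as YAP does, were read beside these because the systems share many targets. Of 16 listed, 14 passed the filter in the comparisons named here. With GSK3i 6 were lower and 1 higher in either background of control siRNA cells (medians −0.55 and −0.33), and 6 lower and none higher in BRCA2-deficient siβ-catenin cells (median −0.44), with the shares of all genes given above. CALD1, an actin-binding regulator of contraction, changed most (−1.61 ± 0.16, −2.22 ± 0.21 and −1.88 ± 0.16). In BRCA2-proficient cells MYL9 (−0.88 ± 0.19) and FHL1 (−0.74 ± 0.14) followed, and in BRCA2-deficient cells TPM1 (−0.89 ± 0.16) and TAGLN (−0.86 ± 0.33). With siβ-catenin in BRCA2-deficient cells these were TPM1 (−0.89 ± 0.16) and MYL9 (−0.87 ± 0.17). FHL2 rose in the control siRNA cells (0.68 ± 0.15 and 0.58 ± 0.18). In BRCA2-deficient control siRNA cells the FHL2 call was lost without untreated number 2 (0.56) or GSK3i number 1 (0.42), and that of TAGLN without untreated number 1 or 3 or GSK3i number 1 or 2 (−0.62 to −0.85). The edgeR test also ended the TAGLN call (−0.88, adjusted p = 0.0543). Under GSK3i siβ-catenin raised 4 of these in BRCA2-proficient cells and 3 in BRCA2-deficient cells, with MYL9 (1.68 ± 0.20 and 1.32 ± 0.20), CALD1 (1.35 ± 0.33 and 0.99 ± 0.20) and CNN2 (0.86 ± 0.17 and 0.72 ± 0.18) ahead and none lower. Over all genes 3.18% and 2.95% were called higher. The CNN2 call in BRCA2-deficient cells was lost without control siRNA number 2 (0.66) or 3 (0.70) or siβ-catenin number 3 (0.57). The edgeR test also ended it (adjusted p = 0.0695), and ended the CALD1 call in BRCA2-proficient cells (adjusted p = 0.108). One model over all 8 groups ended the CALD1 call in BRCA2-deficient cells (DESeq2, adjusted p = 0.0561). Without GSK3i siβ-catenin raised 4 of the 14 in BRCA2-deficient cells and lowered 1 in BRCA2-proficient ones. Without both libraries numbered 2, number 3 is the only siβ-catenin library in the BRCA2-proficient fit. The median of the 14 was then 0.19, beside −0.01 over all genes. For siβ-catenin without GSK3i and all libraries kept, 1.21% of all genes were higher in BRCA2-deficient and 1.96% lower in BRCA2-proficient cells. With BRCA2 depletion 1 was higher in untreated cells, 1 under GSK3i, 5 after siβ-catenin and 2 after both agents, and none was lower. Over all genes 2.77% were higher in untreated cells, 3.76% under GSK3i and 3.38% after both agents. The 5 stand beside 13.6% of all genes called higher. The median of the 14 after siβ-catenin was 0.53. It was 0.15 without both libraries numbered 2, against number 3 as the only BRCA2-proficient library. Without both libraries numbered 2 the 2 after both agents became 1, beside 806 higher of all 17455 genes.

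The genes whose 8 group means on the log2 scale ran most like those of 3 members were found among 11888 genes with a mean of at least 100 normalised counts. For CCN1 these were MAP3K7CL (Pearson r 0.994), HFE (0.991) and RAB40B (0.99). For CCN2 they were RAP2B (0.986), CILK1 (0.983) and SERTAD4-AS1 (0.981), and for ANKRD1 they were GAREM2 (0.98), ALOX12-AS1 (0.975) and HMOX1 (0.974). With both libraries numbered 2 left out these 9 values ran from 0.864 to 0.975. They are descriptions over 8 points that share their libraries, and high values are found when so many genes are searched.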

How the data were processed

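Poly(A) RNA of 22 H1299 cultures was sequenced from stranded TruSeq libraries. Per the study's methods and, for the versions, the submitters' processing notes in the labels, the authors aligned reads to hg19 (GRCh37) with HISAT2 2.0.4, removed duplicates with Picard 1.9.2, used SAMtools 1.4 and counted reads per Ensembl gene with featureCounts 1.5.0. The study's reporting summary lists other versions of HISAT2, Picard and featureCounts, so the versions used are uncertain. The deposited values are raw counts. The Ensembl release and the strand setting are not given in the sources used here. A gene symbol was found for 36479 of 37908 genes, and the other 1429 held 0.743% of counts. Totals were 18.9 to 29.3 M counts (median 23.2 M).

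Groups and replicate numbers came from the labels, and the study describes independent experiments. Each comparison of 2 groups was fitted with DESeq2 1.42.0 in R 4.3.3 on the whole table (Wald test, no shrinkage, Benjamini-Hochberg adjustment). Genes were left out where more than 3 libraries of a fit had fewer than 10 counts. Interaction fits kept genes with at least 10 counts in 3 libraries. A call needed an adjusted p below 0.05 and a log2 fold change beyond 0.5. The code was tested on simulated data. Alternatives were TMM factors, the quasi-likelihood test of edgeR 4.0.16, no filter on low counts, one model over all 8 groups, the replicate number as a block, and leaving out each library. Leaving out both BRCA2-proficient siβ-catenin libraries numbered 2 was chosen after seeing the data.

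Same-numbered libraries deviated together in the 7 comparisons with 3 pairs (correlation of deviations from the group means 0.141 to 0.868), so these are taken as paired by number. The main fits did not model that pairing. The replicate block did, and in these 7 comparisons the blocked value stands beside a result whose call it changes. Some libraries of different numbers also deviated together. In BRCA2-deficient control siRNA cells, GSK3i number 2 had 0.461 with untreated number 3 and 0.268 with untreated number 2. The 10 genes, the other lists and the tests were chosen with earlier results of these data known. Genes named from the other lists were up to 3 with the largest called change in each direction per comparison.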

Additional observations from a re-analysis of the deposited data

How the results depend on the processing

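Counts of the 10 genes called are given as higher and lower. Leaving out 1 library at a time gave ranges of 0 to 1 and 3 to 5 for GSK3i in BRCA2-proficient control siRNA cells, 1 to 2 and 2 to 4 in BRCA2-deficient ones, 0 to 2 and 0 to 0 in BRCA2-proficient siβ-catenin cells, and 1 to 1 and 2 to 4 in BRCA2-deficient ones. For siβ-catenin they were 0 to 1 and 0 to 3 (BRCA2-proficient) and 0 to 1 and 1 to 2 (BRCA2-deficient) without GSK3i, and 1 to 3 and 1 to 1, then 0 to 2 and 0 to 2, with it. For BRCA2 depletion they were 0 to 1 and 1 to 4 in untreated cells, 1 to 1 and 1 to 3 with GSK3i, 0 to 3 and 1 to 3 with siβ-catenin, and 0 to 1 and 3 to 4 with both. The interaction of GSK3i with siβ-catenin in BRCA2-proficient cells gave 0 to 5 higher, and the other interactions 0.

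The edgeR test raised the count for GSK3i in BRCA2-proficient control siRNA cells from 4 to 5 lower, and moved 11 counts by over 1.5 times, each to fewer calls: with siβ-catenin to 0 higher in BRCA2-proficient cells and 0 and 0 in BRCA2-deficient cells without GSK3i, and to 1 higher, then 0 and 0, with it. With BRCA2 depletion it gave 0 higher and 1 lower in untreated cells, 0 higher with GSK3i, and 0 higher and 1 lower with both. One model over all 8 groups gave, with siβ-catenin, 0 higher, then 0 and 0 without GSK3i and 1 higher in BRCA2-deficient cells with it; with BRCA2 depletion 0 and 2 in untreated cells and 1 lower with siβ-catenin; and 1 higher in the interaction above. TMM factors gave 4 lower, and no filter 2 higher, with GSK3i in BRCA2-deficient control siRNA cells. The replicate block gave 2 and 5 there, 2 lower with BRCA2 depletion under GSK3i and 5 lower with both agents. Where the numbers do not pair the libraries it gave 0 higher with BRCA2 depletion in untreated cells, 1 lower with siβ-catenin, and 1 higher in the interaction. There it also called CCN2 with GSK3i in BRCA2-proficient control siRNA cells (−0.85), and lost it with BRCA2 depletion in untreated cells (−0.68). In the 7 paired comparisons it changed no call of the 10 genes other than those given in the results. Without both libraries numbered 2, 4 were lower with GSK3i in BRCA2-proficient siβ-catenin cells and 1 lower with siβ-catenin without GSK3i. The cause was not tested.

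Signs turned for GSK3i in BRCA2-proficient siβ-catenin cells: leaving out 1 library gave −0.62 to 1.16 for CCN1 and −0.58 to 0.96 for CCN2, and leaving out both numbered 2 gave −0.61 for CCN1, −0.63 for AMOTL2 and −0.31 for AJUBA. AJUBA with BRCA2 depletion and siβ-catenin ran from −0.33 to 0.41 when 1 library was left out. The lowest and highest came without the libraries labelled BRCA2-proficient siβ-catenin without GSK3i numbers 2 and 3. Each of the 10 genes had at least 54 counts in every library, and groups held 2 or 3 libraries, so precision rested on few replicates.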
